A study of Mus musculus with 10 samples.

Results

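The integrated stress response was followed through 10 genes in RNA-seq of the mouse right atrium: Atf4, Atf3, Ddit3, Trib3, Chac1, Asns, Psat1, Phgdh, Fgf21 and Gdf15. They were found by symbol in the deposited count table, and all 10 were among its 23337 genes. The study asked how expression in the adult right atrium changes once TBX5, a T-box transcription factor of the atrial gene program, is removed. The mice numbered 4 labelled control and 6 labelled Tbx5 mutant, with 1 library from each mouse. In the mutant mice a tamoxifen-inducible Cre recombinase expressed from the R26 promoter removes exon 3 of Tbx5. That promoter is active in most cell types and is not specific to cardiomyocytes, and excision was not measured here. The genotype of the other group is labelled only Control. The paper names R26CreERt2 mice as controls for other atrial libraries, and whether the controls used here carry Cre is not labelled. All samples carry the same treatment text, intraperitoneal tamoxifen at 0.167 mg a day for 3 days and death 1 week later. The age is labelled 8 to 10 weeks and given as 6 to 8 weeks in the extraction text, and the strain is labelled mix. The right atrium was taken whole, so each library sums all its cell types, and a change in the number of cells of a type cannot be told apart from a change in RNA per cell.

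The integrated stress response is a shared answer of cells to amino acid shortage, unfolded proteins, viral RNA, haem shortage and mitochondrial damage. Kinases that sense these states phosphorylate the translation factor eIF2alpha, most protein synthesis slows, and the mRNA of the transcription factor ATF4 is translated more. ATF4 then activates genes for amino acid synthesis and transport, further transcription factors such as ATF3 and CHOP, and inhibitors of its own pathway. Because ATF4 is largely controlled through translation, its mRNA level and its protein level need not move together, and only mRNA was measured here.

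The main DNA element known for ATF4 is the C/EBP-ATF response element, whose core was searched as TGATGNAA on both strands in the 250 bases before each RefSeq gene start (mouse build GRCm38.p6). It was present in 4 of the 10 genes, Atf3, Chac1, Asns and Fgf21, and in 3.91% of 27025 genes with a promoter window of the same length. The sequences around these matches are shown because they set the genes with the element beside the RNA values that follow. Capitals mark the match, each sequence runs 5′ to 3′ on the gene's own strand, and the first capital lies 110, 193, 23 and 139 bases before the gene start in this order.
Atf3, chr1:191183400-191183479, minus strand: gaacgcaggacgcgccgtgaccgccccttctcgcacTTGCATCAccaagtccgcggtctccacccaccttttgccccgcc
Chac1, chr2:119351013-119351092, plus strand: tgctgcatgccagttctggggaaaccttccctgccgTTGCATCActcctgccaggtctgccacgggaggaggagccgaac
Asns, chr6:7693214-7693243, minus strand: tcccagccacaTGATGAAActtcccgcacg
Fgf21, chr7:45615586-45615665, minus strand: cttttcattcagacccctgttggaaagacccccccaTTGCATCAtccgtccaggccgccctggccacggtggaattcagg

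In Atf3, Chac1 and Fgf21 the match reads as the reverse complement, TTGCATCA, with the same letters in all 3. A T-box half-site, searched as AGGTGTGA, was present before Atf4 only among the 10 genes and in 1.3% of all genes. It is shown because TBX5 is a T-box factor, and its first base lies 202 bases before the gene start.
Atf4, chr15:80254946-80255025, plus strand: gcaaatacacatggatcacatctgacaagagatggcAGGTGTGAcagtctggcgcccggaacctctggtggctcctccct

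The cyclic AMP response element TGACGTCA was found before 0 of the 10 genes and in 1.77% of all genes. A match describes these letters only, and binding was not measured in these libraries.

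Library totals ran from 5703775 to 7095141 counts. Mutant M3 stood apart, with 38.9% of its counts in Rn45s, the gene of the 45S ribosomal RNA precursor, against 0.268% to 1.49% in the other 9 libraries. Reads of Tbx5 were more numerous in the mice labelled Tbx5 mutant, by 0.94 on the log2 scale (SE 0.15, edgeR adjusted p = 0.000495), and counts per gene cannot show the loss of an exon. Groups are named throughout as labelled, and each direction is relative to those labels. The sex labels of the control mice went against Xist and Ddx3y, since controls M1 and M2 held 10149 and 7850 reads of Xist and no read of Ddx3y, and controls F1 and F2 held 5 and 14 reads of Xist. The atrial cardiomyocyte genes Myl7 and Nppa were abundant in both groups, at means of 6372 and 26827 CPM (counts per 1000000 counts of a library) in control mice and 960.2 and 17114 in mutant mice.

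Of the 10 genes, 5 were called higher in the mice labelled Tbx5 mutant and 0 were called lower in edgeR, and 0 were lower at an unadjusted p under 0.05 or by DESeq2 or limma. The 5 were Atf3, Psat1, Chac1, Asns and Atf4. A call required a Benjamini-Hochberg adjusted p under 0.05 in edgeR's quasi-likelihood test over all genes, a change of more than 1.5-fold and a mean normalized signal over 1 in control mice. Of the 13084 genes tested, 8.5% were called higher, 7.16% lower and 15.7% either way. Ddit3, Trib3 and Phgdh were tested and not called. Fgf21 and Gdf15 had too few reads to be tested.

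**Figure D1:**
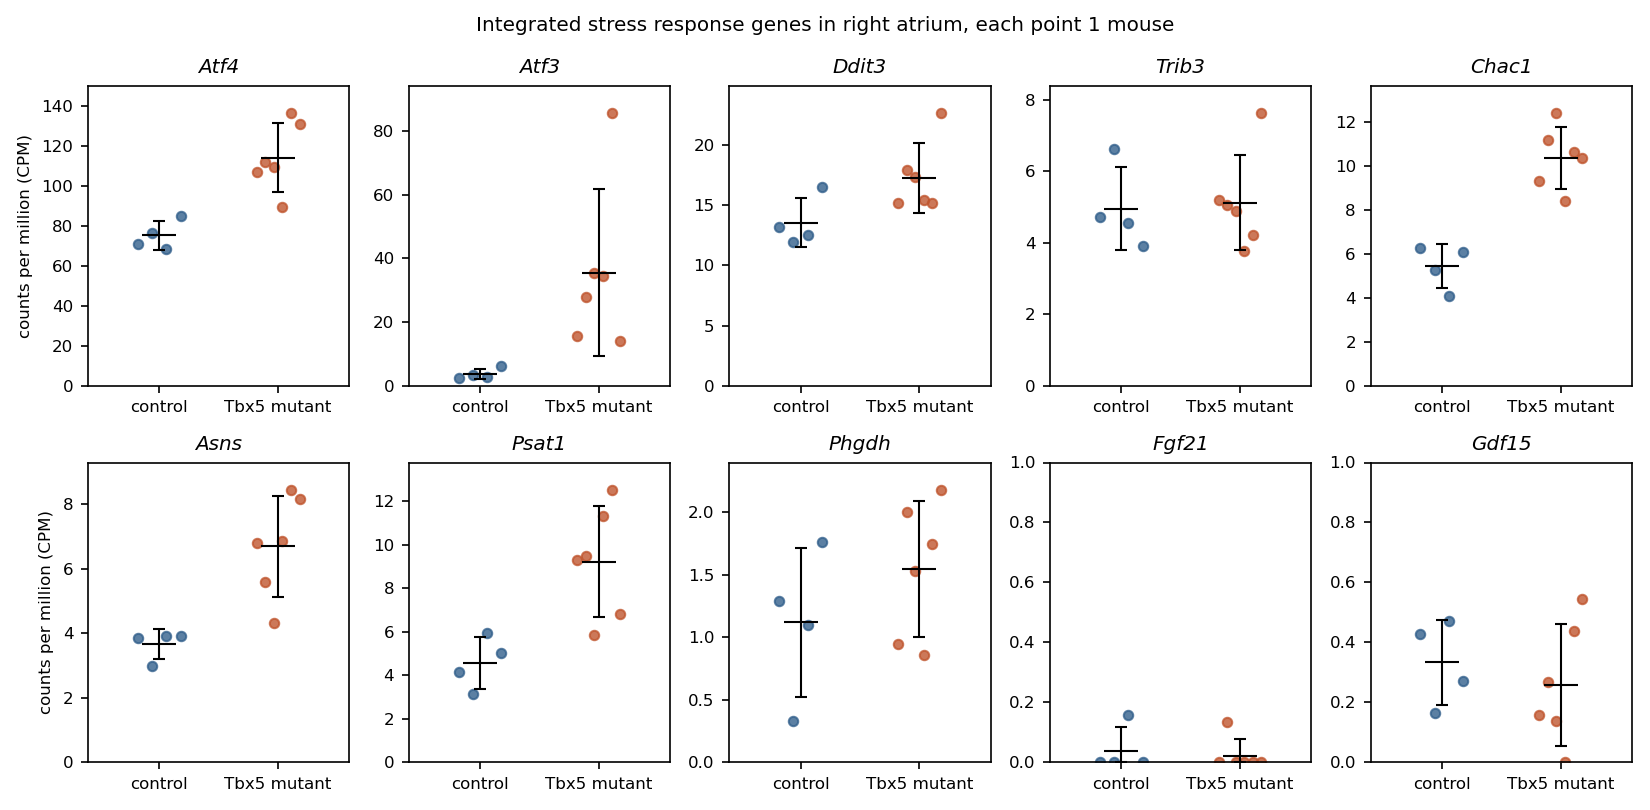
CPM (vertical axis, from 0) of the 10 genes in each mouse, with control mice in blue, mice labelled Tbx5 mutant in orange and bars for the mean and SD. The 6 mutant mice lie above all 4 control mice for Atf4, Atf3, Chac1 and Asns, while the groups overlap for the other 6 genes.

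Atf4, the transcription factor at the centre of the response, was at 71.2 and 76.3 CPM in controls M1 and M2 and at 68.5 and 85.0 CPM in controls F1 and F2, where CPM are scaled to the TMM library size. The 6 mutant mice ran from 89.3 (M1) to 136 CPM (M2) with a median of 111. All 6 mutant mice were thus above all 4 controls, with a narrow gap between control F2 and mutant M1. The log2 fold change was 0.60 (SE 0.12, adjusted p = 0.00182), which is 1.51-fold and only just past the 1.5-fold threshold. A two-sided exact permutation test over the 210 splits of 4 mice against 6 gave p = 0.00952, the smallest it can give. With the replicate block, or without control M1, control F1, mutant M2 or mutant M3, the log2 fold change was 0.55 to 0.58 and fell under that threshold, with an adjusted p of at most 0.0089 in these fits. Other fits gave lower values. After removal of the trend of fold change on transcript length it was 0.47 (adjusted p = 0.00257), and 0.44 with the block as well (adjusted p = 0.0118). It was 0.51 in mice labelled female (adjusted p = 0.0136) and 0.35 with the level of immediate early genes as a covariate (adjusted p = 0.0905).

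Atf3, a transcription factor induced by ATF4 and also an early gene of many other stimuli, showed the largest difference of the 8 genes tested. It was at 2.57, 3.47, 2.82 and 6.09 CPM in controls M1, M2, F1 and F2, from 18 to 45 reads. In the mutant mice it ran from 14.2 CPM (M3) to 85.5 CPM (M2) with a median of 31.2, from 52 to 587 reads. The lowest mutant mouse was above the highest control mouse. The mutant mice differed widely among themselves, at 35.5 ± 26.1 CPM (SD, n = 6) against 3.74 ± 1.61 (SD, n = 4) in controls. The log2 fold change was 3.25 (SE 0.51, adjusted p = 0.000385, exact permutation p = 0.00952), and it was 2.78 (SE 0.33, adjusted p = 6.86e-05) without mutant M2.

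Ddit3 (chr10:127290793-127296291) encodes CHOP, the factor tied to cell death when stress persists. Its control values were 13.1, 11.9, 12.5 and 16.5 CPM in M1, M2, F1 and F2. The mutant values ran from 15.1 to 22.6 CPM with a median of 16.4. All 6 mutant mice were above 3 of the controls, and 3 of them were above control F2 as well. The log2 fold change of 0.33 (SE 0.14, adjusted p = 0.0850, exact permutation p = 0.0381) missed the threshold. Without control F2 it was 0.45 (adjusted p = 0.0362), and after removal of the trend of fold change on transcript length it was 0.09 (adjusted p = 0.625).

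Trib3 (chr2:152337425-152344060), a pseudokinase that is induced by ATF4 and CHOP and restrains them, showed no separation of the groups. Control mice held 4.72, 6.62, 4.55 and 3.93 CPM, and mutant mice 3.77 to 7.62 CPM with a median of 4.97. The ranges overlapped almost fully, with mutant M1 below every control and mutant M3 above every control. The log2 fold change was 0.03 (SE 0.22, adjusted p = 0.932), with an SE that leaves room for a modest change either way.

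Chac1 encodes an enzyme that cleaves glutathione and is a target of ATF4 with ATF3 and CHOP. Control values were 6.29, 5.29, 4.08 and 6.09 CPM. The mutant mice held 8.40 to 12.4 CPM with a median of 10.5, and none of them reached down to the controls. The log2 fold change was 0.93 (SE 0.16, adjusted p = 0.000867, exact permutation p = 0.00952). Within the mutant group Chac1 varied little, at 10.4 ± 1.41 CPM (SD, n = 6), and the mouse highest in Atf3, M2, was in the middle at 10.6 CPM.

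The genes of amino acid synthesis differed from each other. Asns, which makes asparagine, was at 3.86, 2.98, 3.92 and 3.93 CPM in the controls and at 4.32 to 8.45 CPM with a median of 6.82 in the mutant mice. The groups did not overlap, although mutant F3 exceeded the highest control by under 1 CPM on 31 reads. Its log2 fold change was 0.84 (SE 0.21, adjusted p = 0.00825, exact permutation p = 0.00952).

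Psat1 (chr19:15905123-15925059), the aminotransferase of the second step of serine synthesis, was at 4.14, 3.14, 5.96 and 5.01 CPM in the controls. In the mutant mice it was at 5.85 to 12.5 CPM with a median of 9.38. The groups overlapped at 1 point, mutant F3, which lay just under control F1, and the other 5 mutant mice were above every control. The log2 fold change was 1.02 (SE 0.24, adjusted p = 0.00565, exact permutation p = 0.0190). Phgdh (chr3:98313171-98339969), the dehydrogenase of the step before it, was low throughout, at 1.29, 0.331, 1.10 and 1.76 CPM in the controls, from 2 to 13 reads, and at 0.857 to 2.18 CPM in the mutant mice. Its groups overlapped, and its log2 fold change of 0.41 (SE 0.39, adjusted p = 0.453) was about as large as its error at this depth.

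The genes of the hormones FGF21 and GDF15, which signal cell stress to other organs, were close to absent. Fgf21 had 1 read in control F1, 1 read in mutant F2 and none in the other 8 libraries. Gdf15 (chr8:70629393-70632470) had 1 to 3 reads in the control mice and 0 to 3 in the mutant mice. No library exceeded the floor of 3 reads, which is 4.23e-05% to 5.26e-05% of a library, so no fold change is given, and a difference was not detectable at this depth. Of the 4 genes with the TGATGNAA core, Fgf21 was thus the one with almost no reads in either group.

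For the whole table, every mutant library lay above every control library in 11.7% of the genes tested, against 4 of the 8 tested genes here. In the control mice, on a scale of CPM per kilobase of transcript, Atf4 was the highest at 37.3 ± 3.60 (SD, n = 4), followed by Ddit3 at 14.0 ± 2.12 and Chac1 at 3.32 ± 0.613. The next 4, Trib3 at 2.44 ± 0.573, Atf3 at 1.88 ± 0.813, Asns at 1.82 ± 0.229 and Psat1 at 1.74 ± 0.459, were within about 1 SD of their neighbours in the order. Phgdh at 0.591 ± 0.314 followed, with Gdf15 and Fgf21 at the end. In the mutant mice Atf4 remained first, at 56.5 ± 8.50 (SD, n = 6). Atf3 at 17.9 ± 13.1 stood level with Ddit3 at 17.8 ± 2.96, within the spread of Atf3.

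**Figure D2:**
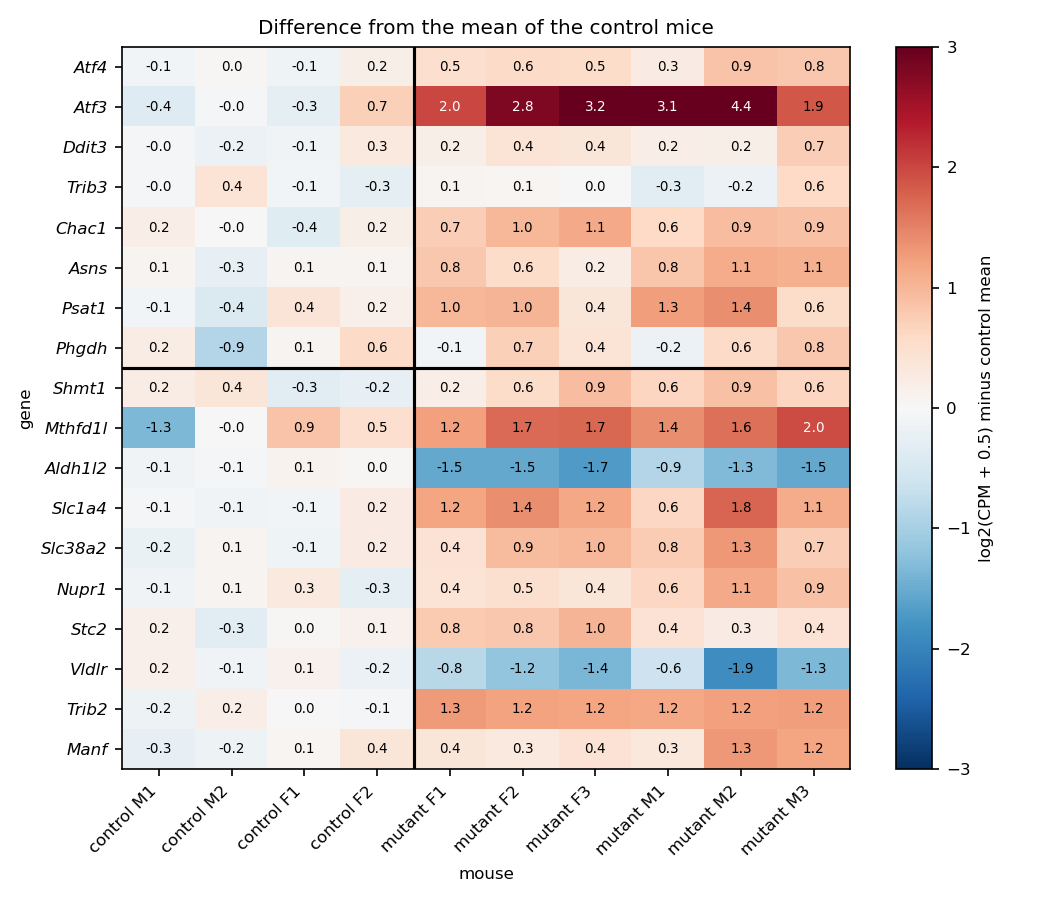
Difference of each mouse from the mean of the 4 control mice, in log2(CPM + 0.5), for the 8 tested genes of the response (above the black line) and the called genes of the pathway lists (below it), with mice in columns. Numbers give the difference and the colour scale ends at 3; Atf3 reads 1.9 to 4.4 in the mutant mice, Trib2 reads 1.2 to 1.3 and Aldh1l2 reads -0.9 to -1.7.

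The plot of differences by mouse shows that the mutant mice were not ordered alike for all genes. Mutant M2 held the highest values of Atf4, Atf3, Asns and Psat1. Mutant M3, the library rich in Rn45s, held the lowest Atf3 and the highest Ddit3, Trib3 and Phgdh of the mutant group. Mutant M1 held the lowest Atf4, Trib3, Chac1 and Phgdh.

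Among all tested genes, those with the highest Pearson r to each called gene over the 10 libraries were listed, as a description, on the log2(CPM + 0.5) scale. The libraries share the difference between the groups, so a high r follows for many genes. Closest to Atf4 were Slc35b1 (r = 0.992), Erp29 (r = 0.990) and Nedd8 (r = 0.989). Closest to Atf3 were Tnfrsf11a (r = 0.976), Slc38a2 (r = 0.974) and Aurka (r = 0.971). For Chac1 they were Sema3b (r = 0.972), Cyth4 (r = 0.966) and Pld4 (r = 0.966). For Asns they were 4930455C21Rik (r = 0.976), Polr2h (r = 0.971) and Mrps9 (r = 0.965). For Psat1 they were Prpf31 (r = 0.973), Cdt1 (r = 0.968) and Lmnb2 (r = 0.961). No gene appeared beside more than 1 of the 5.

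The remaining pathway was read through 8 lists of 104 genes, of which 100 were tested. Of these, 8 were called higher and 2 lower, where 8.5% and 7.16% of all genes tested were, so that the share called higher was at that of the whole table. Their median log2 fold change was 0.19 against -0.00495 over all genes tested. With the fold threshold set aside, 23 were higher and 6 lower at an adjusted p under 0.05, beside 16.3% and 15% of all genes.

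The sensors and brakes of the pathway showed 0 calls among 15 genes in edgeR, DESeq2 and limma, with a median of 0.10. These are the eIF2alpha kinases, the phosphatase subunits and the subunits of eIF2 and of its exchange factor eIF2B. At an unadjusted p under 0.05 edgeR had 5 higher and 1 lower. The share of all genes at that unadjusted cut was not counted, for this list or those below. At an adjusted p under 0.05 and any fold, 1 was higher and 1 lower, where 16.3% and 15% of all genes were. The lowest adjusted p values there were those of Impact, an inhibitor of the kinase GCN2, at -0.39 (adjusted p = 0.0102), and Eif2b4, at 0.50 (adjusted p = 0.0124). The kinase genes gave -0.03 for Eif2ak1, 0.34 for Eif2ak2, 0.05 for Eif2ak3 and -0.13 for Eif2ak4, with adjusted p values of at least 0.267. Ppp1r15a, which encodes the stress-induced phosphatase subunit GADD34 and is a target of ATF4, was at 32.9 ± 6.99 CPM (SD, n = 4) in control mice and 30.4 ± 4.35 (SD, n = 6) in mutant mice.

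The other bZIP factors that pair with ATF4 or bind related sites had 0 calls among 8 genes by the same 3 tools and a median of 0.33, with 3 higher at an unadjusted p under 0.05. Nfe2l2, which encodes NRF2, was at 0.31 (adjusted p = 0.0231) and Jun at 0.42 (adjusted p = 0.0487).

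Of 12 tested genes of serine, one-carbon and proline metabolism, 2 were called higher and 1 lower. Mthfd1l, a mitochondrial enzyme of the folate cycle, was at 0.429, 1.82, 3.76 and 2.84 CPM in the controls and at 5.05 to 8.71 CPM in the mutant mice, without overlap (log2 fold change 1.60, SE 0.35, adjusted p = 0.00378). Shmt1, the cytosolic serine hydroxymethyltransferase, rose by 0.71 (SE 0.22, adjusted p = 0.0265), with 5 of 6 mutant mice above every control. Aldh1l2, which releases one-carbon units in mitochondria as carbon dioxide, moved the other way. It was at 42.9 to 49.7 CPM in the controls and at 13.8 to 24.9 CPM in the mutant mice, and fell by 1.42 on the log2 scale (SE 0.14, adjusted p = 9.24e-06). Cth and Cbs of this list were below the filter and not tested. Cbs had 8 to 19 reads in the controls and 0 to 9 in the mutant mice, with 5 of 6 mutant mice below every control.

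Of 7 tested amino acid transporter genes, 2 were called higher and 0 lower, in edgeR, DESeq2 and limma alike. Slc7a1, a cationic amino acid transporter, had an adjusted p under 0.05 below the fold threshold, at -0.54 (adjusted p = 0.00892), with all 6 mutant mice below every control. Slc38a2, the neutral amino acid transporter SNAT2, was at 182 to 246 CPM in the controls and 282 to 516 CPM in the mutant mice (log2 fold change 0.88, SE 0.15, adjusted p = 0.000788). Slc1a4, another neutral amino acid transporter, was at 4.14 to 5.41 CPM in the controls and 7.20 to 16.3 CPM in the mutant mice (1.33, SE 0.21, adjusted p = 0.000384). The groups did not overlap for either gene. Slc7a11 and Slc7a3 were below the filter and not tested. Slc7a11, another amino acid transporter, had 5 to 10 reads in the controls and 2 to 5 in the mutant mice. On those few reads all 6 mutant mice lay below every control, at 0.437 to 0.686 CPM against 0.784 to 1.65.

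Among 22 further genes listed as stress targets, aminoacyl-tRNA synthetases included, 3 were called higher and 1 lower. Whether each is a target in this tissue was not tested. Trib2, a relative of Trib3, was at 20.9 to 27.1 CPM in the controls and at 52.6 to 56.9 CPM in the mutant mice, a log2 fold change of 1.22 (SE 0.09, adjusted p = 7.31e-07). Its mutant mice differed from each other by far less than from the controls, where Trib3 showed no separation. The difference between the 2 genes was not tested. Nupr1, a small stress-induced chromatin protein, rose by 0.71 (adjusted p = 0.0149), and Stc2, a secreted glycoprotein, by 0.66 (adjusted p = 0.00789). Vldlr, the very low density lipoprotein receptor, was at 563 to 702 CPM in the controls and at 173 to 407 CPM in the mutant mice, and fell by 1.16 on the log2 scale (adjusted p = 0.000471). With the fold threshold set aside, 8 of the 22 were higher and 1 lower at an adjusted p under 0.05. The higher ones included the synthetase genes Aars (0.38), Gars (0.22), Nars (0.23) and Sars (0.23). The other synthetases of this list had an adjusted p of at least 0.272.

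The 8 synthetases less often named as targets had 0 calls by these tools, 3 higher at an unadjusted p under 0.05 and a median of 0.19, with Farsa at 0.41 (adjusted p = 0.00831) and Farsb at 0.21 (adjusted p = 0.0848). Of 18 genes of the endoplasmic reticulum unfolded protein response, 1 was called higher. This was Manf, a secreted protein of the reticulum (log2 fold change 0.70, SE 0.22, adjusted p = 0.0274), for which 4 of 6 mutant mice were above every control, and it was not called by limma. With the fold threshold set aside, 4 genes of this list, Manf included, were higher and 2 lower at an adjusted p under 0.05. The lower ones were Dnajb9 at -0.56 (adjusted p = 0.0113) and Ern1 at -0.36 (adjusted p = 0.0218). The list of 10 mitochondrial stress genes held 0 calls by the 3 tools, 2 higher at an unadjusted p under 0.05 and a median of 0.13, with Lonp1 at 0.22 (adjusted p = 0.0688) and Hspd1 at 0.23 (adjusted p = 0.0991).

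**Figure D3:**
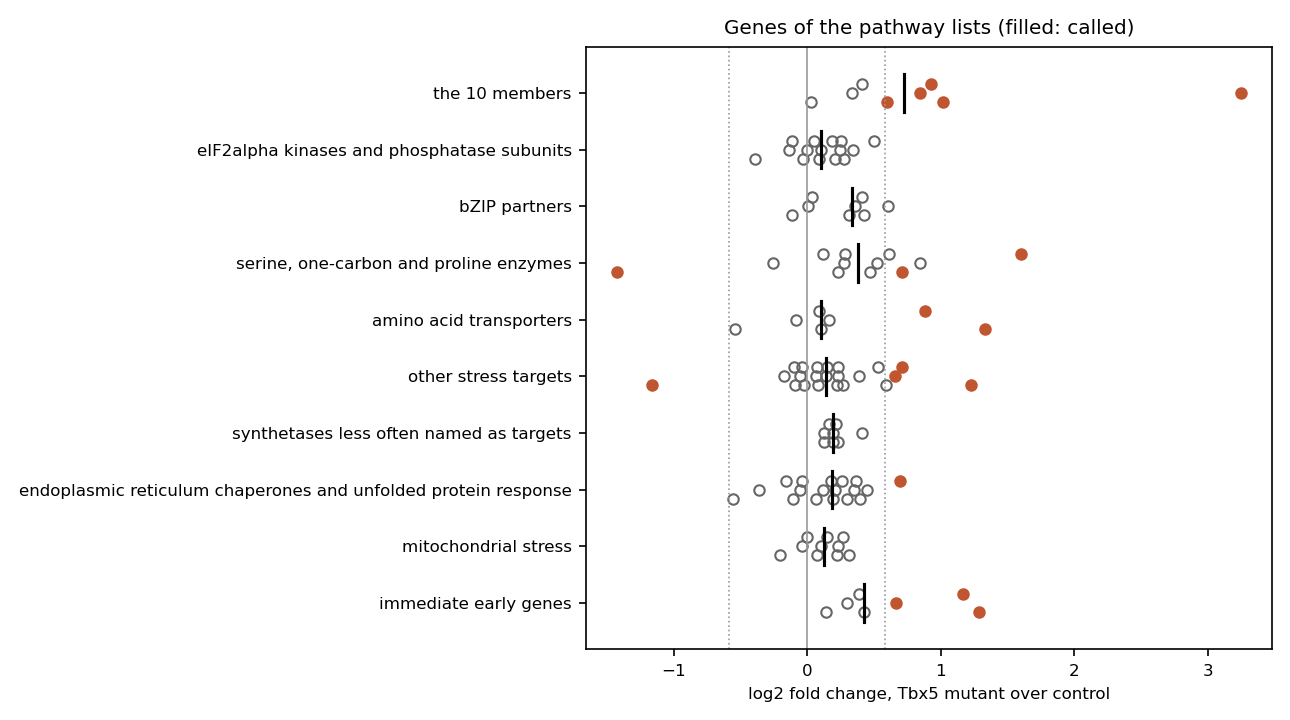
Log2 fold change (horizontal axis, Tbx5 mutant over control) of each tested gene, in rows for the stress response genes, the 8 pathway lists and the immediate early genes; filled points were called, black bars are medians and dotted lines mark 1.5-fold. The 8 lists hold 10 called genes, 8 to the right and 2 to the left, with medians between 0.10 and 0.38.

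Other gene groups differed between the same libraries. Immediate early genes, which also respond to handling of tissue, had 3 of 7 tested members called higher, Fos at 1.17, Egr2 at 1.29 and Junb at 0.66. Jun, which was not called, was the most abundant of them, at means of 41.0 CPM in control and 54.9 CPM in mutant mice. The summed level of all 8 listed genes was 80.9 to 113.3 CPM in control and 87.9 to 163.4 CPM in mutant mice. With that level as a covariate, the log2 fold change was 2.61 for Atf3 (adjusted p = 0.00770), 0.74 for Chac1 (adjusted p = 0.0379) and 1.04 for Psat1 (adjusted p = 0.0440). In the same fit it was 0.35 for Atf4 (SE 0.13, adjusted p = 0.0905) and 0.82 for Asns (SE 0.29, adjusted p = 0.0791), so that these calls were lost. Without the covariate it was 0.60 (SE 0.12) for Atf4 and 0.84 (SE 0.21) for Asns. Of all genes tested, 9.62% were called with the covariate and 15.7% without it. Whether the immediate early genes have a part in the values of Atf3 was otherwise not tested.

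Markers of cell types moved as well. All 3 proliferation genes were higher, with a summed level of 9.1 to 22.7 CPM in control and 56.9 to 218.4 CPM in mutant mice. Of 5 fibroblast markers 3 were higher (summed level 2517 to 3139 CPM against 3552 to 4786), while Pdgfra was at -0.40 (adjusted p = 0.0152) and Dcn at -0.01. Smooth muscle markers had 2 of 3 higher (77.1 to 134.1 against 141.9 to 530.1) and macrophage markers 3 of 4 (307.1 to 508.1 against 487.0 to 750.5). The ventricular genes Myl2 and Myl3 were higher by 2.10 and 3.92 on the log2 scale. Irx4, the other gene of that list, was below the filter, with 0 reads in the control mice and 0 to 1 in the mutant mice. The summed level of the 3 listed genes was 35.0 to 57.7 CPM against 603.0 to 844.5. Most of that sum was Myl3, at means of 45.4 CPM in control and 688 CPM in mutant mice. Of 6 cardiomyocyte genes, 2 were higher and 3 lower. Both tested erythroid genes were higher in edgeR, though not called by limma, whereas Hba-a1 was at 0 in all 10 libraries. None of the 4 endothelial, 3 epicardial or 1 tested nerve marker was called by edgeR, DESeq2 or limma, and 1 of them, endothelial, was lower at an unadjusted p under 0.05. T or B cell markers summed to at most 1.9 CPM in any library and adipocyte markers to at most 4.14 in 9 libraries and to 20.8 in mutant M2, the mouse highest in Atf4, Atf3, Asns and Psat1. The part of these cell types in the values of the stress response genes was not tested.

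The difference between the groups was compared between mice labelled male and mice labelled female. None of the 8 tested genes had an interaction of genotype and labelled sex at an adjusted p under 0.05 in edgeR, where 0.29% of all genes did. At an unadjusted p under 0.05 the count was 0 in edgeR and 1 in limma. The gene in limma was Asns, at 0.70 toward mice labelled male (adjusted p = 0.472). In edgeR Psat1 came nearest, with a log2 interaction of 0.93 toward mice labelled male (adjusted p = 0.491). Its log2 fold change was 1.51 (adjusted p = 0.0225) in mice labelled male and 0.58 (adjusted p = 0.149) in mice labelled female, and that of Asns was 1.18 (adjusted p = 0.0296) and 0.50 (adjusted p = 0.225). Atf3 was called in both, at 3.93 and 2.54. By their Xist and Ddx3y reads the mutant mice matched their sex labels, whereas the control mice did not. Each labelled-sex fit thus set control mice against mutant mice of the other sex by those reads. Sex and genotype cannot be told apart within these fits. With male and female exchanged among the controls, as their Xist and Ddx3y reads would have it, the interaction of Psat1 was -0.22 and the lowest adjusted p was 0.854.

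**Figure D4:**
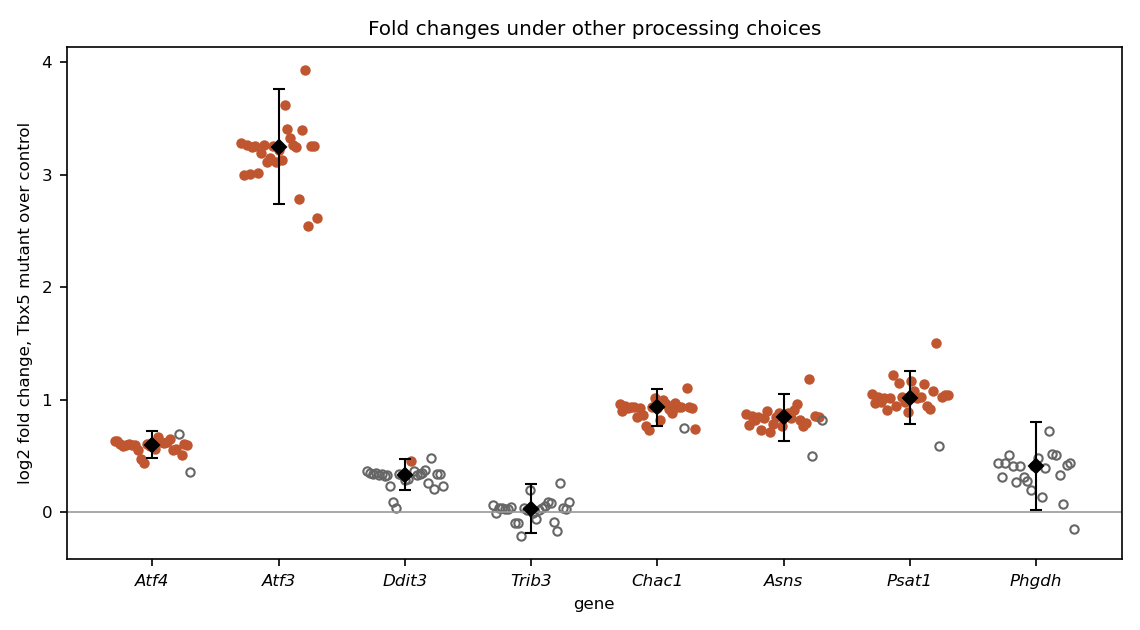
Log2 fold change (vertical axis, Tbx5 mutant over control) of the 8 tested genes in the reported fit (black diamond with its SE) and under each other processing choice (circles), filled where the adjusted p was under 0.05. Atf3 ran from 2.54 to 3.93 and kept an adjusted p under 0.05 throughout, whereas Trib3 lay on both sides of 0.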

How the data were processed

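Right atrial RNA-seq of 4 control and 6 Tbx5 mutant mice was analysed, grouped by the labelled genotype. The authors deposited 1 table with the counts per gene and library, whole numbers without normalization, and with a signal, the count divided by 1 DESeq2 size factor per library, and its mean. Its other deposited columns are the authors' own DESeq2 comparison (log2 fold change, Wald score, standard error, fold change as a linear ratio, p-value and adjusted p-value), which was not used. The submitters' processing notes name FastQC, TopHat2 2.0.11, featureCounts, DESeq2 and build mm10, and the gene annotation is not given in the sources used here. The labels describe both an mRNA kit after globin removal and ribosomal RNA removal from total RNA, without saying which applies, and do not state whether strand was used in counting. No column of per-library values was without a sample.

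Counts were tested with edgeR 4.0.16 in R 4.3.3: genes kept by filterByExpr, TMM scaling, a prior count of 0.125 and the quasi-likelihood test, with Benjamini-Hochberg adjustment over the 13084 genes kept. Each standard error came from the fold change and its F statistic. The exact permutation test of single genes took the difference of mean CPM and was two-sided. CPM per kilobase used the length of the longest GENCODE transcript of each gene, found for 22868 of 23337 genes. DESeq2 1.42.0 and limma 3.58.1 served as alternatives, with other scalings, filters, thresholds, covariates, a replicate block and each library left out. The authors' size factors, exchanged control sex labels and the immediate early gene covariate were alternatives chosen after seeing the data. The members and gene lists were chosen with earlier results of these data known. The motifs were chosen after the counts had been read, and promoters were those of RefSeq, found for all 10 genes. Genes named were the 10 members, the called genes of each pathway list (at most 4) or else the 2 with the lowest adjusted p, and the 3 genes most like each called member. Other genes named, such as those below the filter, the kinases, Ppp1r15a and marker genes, were chosen after their values were seen. Dele1, Adgre1 and Hbb-bs were found under older symbols. The fit was tested on simulated data.

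Every library pair within a group differed by more than sampling noise (chi-square per degree of freedom at least 3.78 over 21 pairs), and each library was 1 replicate. Reads carry no molecular identifiers, so floors cover counting error only.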

Additional observations from a re-analysis of the deposited data

Results flagged for a closer look

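Each gene's 4 control and 6 mutant values were checked for a mouse far from its group by Dixon's ratio of the gap to the range. Of 20 groups of values 6 were past the 95% critical value, where about 1 would be for independent, normally distributed values. Low counts are not so distributed, and a group with a single read has a ratio of 1 by construction, so the excess is not a measure of outlying mice. Mutant M2 was far above the other mutant mice in Atf3, at 85.5 CPM against 35.5 for the next. Mutant M3 was the highest in Ddit3, at 22.6 CPM against 17.9 for the next, and in Trib3, at 7.62 CPM against 5.20; this is the library with 38.9% of its counts in Rn45s, and Trib3 rests there on 28 reads. Control M2 was the lowest in Asns, at 2.98 CPM from 18 reads against 3.86 for the next. In Fgf21 control F1 at 0.157 CPM and mutant F2 at 0.133 CPM stood apart through 1 read each, with 0 reads in the rest of their groups.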

How the results depend on the processing

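The count of 5 called genes was 4 or 5 under the other scalings, DESeq2, limma, other prior counts, no filter, sex as a covariate, no Rn45s, and with each library left out (4 to 5). It was 3 where a mean of 50 reads was required (4 genes tested), 3 in mice labelled male and 2 in mice labelled female. It was 2 at a fold over 2 and 3 with the immediate early gene level as a covariate. Of all genes tested, 12.9%, 11.2%, 14.2%, 6.92% and 9.62% were called in these settings, in this order, against 15.7% in the reported fit. Fewer mice or genes enter several of these settings. By Xist and Ddx3y reads, control and mutant mice differ in sex in both labelled-sex fits. Calls of the pathway lists, not recounted by sex, by threshold or with that covariate, were 7 to 13 in the fits run (10 in the reported fit). Atf4 missed the adjusted p of 0.05 in mice labelled male (0.69, adjusted p = 0.0548) and with the immediate early covariate (0.35), as did Chac1 in mice labelled male (0.75, adjusted p = 0.0737), Asns (0.50) and Psat1 (0.58) in mice labelled female, and Asns with that covariate (0.82); the cause was not tested. Ddit3 had an adjusted p under 0.05 only without control F2 (0.45), where it was still under 1.5-fold and not called. Leaving out 1 library gave 0.55 to 0.67 for Atf4, 2.78 to 3.62 for Atf3, 0.25 to 0.45 for Ddit3, -0.086 to 0.20 for Trib3, 0.82 to 1.02 for Chac1, 0.76 to 0.96 for Asns, 0.89 to 1.16 for Psat1 and 0.14 to 0.72 for Phgdh, which was tested in 7 of these 10 fits. Trib3 turned negative under quantile normalization (-0.0053), the replicate block (-0.10), removal of the length trend (-0.10), both together (-0.21), in mice labelled male (-0.17), and without control F1 (-0.0056), control F2 (-0.06) or mutant M3 (-0.086). Phgdh turned negative with the immediate early covariate (-0.15), and the Psat1 interaction with exchanged control sex labels (-0.22). No value of Trib3 or Phgdh passed the threshold in these fits.

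Log2 fold change and transcript length were related across genes (Spearman rho -0.32, genes not being independent); without that trend Atf4 was 0.47 and 4 of the 5 calls were left. Deviations from the group means correlated at -0.05 to 0.04 in the 4 pairs of mice with equal replicate labels. In the 20 other pairs they correlated at -0.29 to 0.28. Whether equal replicate labels mark paired mice was not otherwise tested. With the replicate block, 4 genes were called and 1957 of all genes against 2049. Depth limits Phgdh, Fgf21 and Gdf15, with at most 15 reads in any library.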
